A study of Mus musculus with 35 samples.

Results

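The genes that fasten the epidermis to the dermis were followed through 35 RNA-seq libraries of mouse skin wounds. The group holds 8 genes, Itga6, Itgb4, Itga3, Lama3, Lamb3, Col17a1, Dst and Col7a1, out of 22830 gene symbols in each count table. They were chosen by name as parts of the hemidesmosome, laminin-332 and the anchoring fibrils, and not by their values. Earlier results of these data were known when they were chosen. Each member was found in both tables and in all 8 groups of wounds, and each passed the filter on low counts in every comparison.

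All animals were adult mice on a B6 background that carried floxed Col5a1 alleles, received tamoxifen and had a full-thickness excision on the dorsum. Col5a1CKO animals also carried Col1a2-CreERT, an inducible Cre under a collagen I enhancer that drives the loss of this collagen V chain in fibroblasts, whereas hemidesmosomes are structures of keratinocytes. WT animals were Cre-negative Col5a1 fl/fl littermates. The first table holds day 14 wounds of 7 WT, 7 Col5a1CKO and 3 Col5a1CKO animals injected with cultured WT fibroblasts, and day 19 wounds of 3 WT and 3 Col5a1CKO animals. The paper gives PBS as the control for mice without fibroblasts. Its legends of the fibroblast experiment name 7 WT and 7 Col5a1CKO wounds of day 14 with vehicle. The cilengitide table holds 4 WT wounds with vehicle, 4 Col5a1CKO wounds with vehicle and 4 Col5a1CKO wounds with cilengitide, a cyclic peptide that blocks the integrins alphaV-beta3 and alphaV-beta5 and was given daily, all at day 14 according to the design of the series. The fibroblast group was taken from the sample titles at day 14, although a treatment label places the fibroblasts on the day 19 Col5a1CKO wounds. Whether the lettered or numbered wounds are littermates is not given, so the p-values measure the spread between these samples. RNA came from a biopsy of the middle of the wound, which mixes keratinocytes with fibroblasts, leukocytes and vessels, and in such bulk samples fewer cells of a type and less RNA per cell cannot be told apart.

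The hemidesmosome is a plaque at the basal face of keratinocytes. Its receptor is integrin alpha6-beta4, which binds laminin-332 in the basement membrane and is held to the keratin filaments by plectin and by BP230, an epithelial product of Dst. Collagen XVII spans the membrane beside it, and collagen VII forms the anchoring fibrils that run from the basement membrane into the dermis. During re-epithelialization, keratinocytes of the migrating tongue lay down laminin-332 and bind it through alpha6-beta4 and alpha3-beta1, and loss of these genes causes blistering of the skin.

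Expression is given as CPM, the counts scaled to library size with edgeR's TMM normalization, and positions are on mouse build NCBI37/mm9. Among the receptors, Itga6 (chr2:71583673-71696473, plus strand) encodes the alpha6 chain, Itgb4 (chr11:115836023-115869726, plus) its beta4 partner and Itga3 (chr11:94905788-94938115, minus) the alpha3 chain. Among the ligand chains, Lama3 (chr18:12492533-12741522, plus) and Lamb3 (chr1:195128151-195170072, plus) encode alpha3 and beta3 of laminin-332. Col17a1 (chr19:47720834-47766584, minus) encodes the transmembrane collagen, Dst (chr1:33965125-34365495, plus) the plakin family of linkers, and Col7a1 (chr9:108855631-108886920, plus) the collagen of the anchoring fibrils. Counts cover the exons of each gene and do not separate its introns or its untranslated ends.

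The Dst values describe the long transcripts. The row used is 23242 bp long, and another row of 17200 bp, whose counts were a median of 5.48% lower, starts at the same place, position 34068670 of chromosome 1. A short transcript of the annotation, with 25 exons and 7936 exon bases at chr1:34217177-34239901, shares 39.7% of its exon bases with the longest transcript. No row was counted for such a short internal-start form, and BP230 is made from a short epithelial form. The counts of Dst therefore hold exons that several forms share, and the forms cannot be told apart.

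The stretches of 250 bases before the transcription start are shown for 4 members that differed in their pattern across the wounds. By Pearson's r over the wounds, Col17a1 and Lamb3 ran with keratinocyte RNA, and Col7a1 and Dst did not. Sequences are from RefSeq on build GRCm38.p6, read 5′ to 3′ on the strand of the gene, and 5 of the 8 members had an entry, the other being Itga3. Capitals mark the GC box GGGCGG on either strand.
Col17a1, minus strand, chr19:47692043-47692292: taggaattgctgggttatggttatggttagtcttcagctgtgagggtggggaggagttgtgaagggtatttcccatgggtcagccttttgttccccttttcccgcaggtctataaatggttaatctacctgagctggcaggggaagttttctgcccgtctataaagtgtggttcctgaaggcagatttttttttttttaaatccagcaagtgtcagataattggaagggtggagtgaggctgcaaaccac
Lamb3, plus strand, chr1:193301744-193301993: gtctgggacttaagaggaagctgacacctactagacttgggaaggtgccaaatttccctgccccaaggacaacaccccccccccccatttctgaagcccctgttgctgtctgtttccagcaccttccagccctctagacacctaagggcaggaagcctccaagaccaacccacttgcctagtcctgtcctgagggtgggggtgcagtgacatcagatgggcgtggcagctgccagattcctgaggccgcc
Col7a1, plus strand, chr9:108953336-108953585: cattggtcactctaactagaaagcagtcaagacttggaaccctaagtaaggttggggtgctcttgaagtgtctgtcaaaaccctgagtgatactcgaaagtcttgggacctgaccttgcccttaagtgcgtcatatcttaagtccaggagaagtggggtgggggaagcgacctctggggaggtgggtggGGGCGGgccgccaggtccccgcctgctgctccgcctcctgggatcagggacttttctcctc
Dst, outer start, plus strand, chr1:34011345-34011594: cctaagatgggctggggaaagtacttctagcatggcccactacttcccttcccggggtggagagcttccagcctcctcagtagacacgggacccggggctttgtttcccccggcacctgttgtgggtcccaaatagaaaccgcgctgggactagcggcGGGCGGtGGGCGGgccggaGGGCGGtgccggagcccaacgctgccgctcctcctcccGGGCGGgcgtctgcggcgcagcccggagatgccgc
Dst, inner start, plus strand, chr1:34160010-34160259: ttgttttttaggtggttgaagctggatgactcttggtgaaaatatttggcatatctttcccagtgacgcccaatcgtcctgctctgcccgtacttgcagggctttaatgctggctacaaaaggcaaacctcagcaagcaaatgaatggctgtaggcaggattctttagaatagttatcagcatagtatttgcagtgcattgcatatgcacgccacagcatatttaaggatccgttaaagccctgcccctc
The windows of Col17a1, Lamb3 and the inner start of Dst held 0 GC boxes, that of Col7a1 held 1 and that of the outer start of Dst held 4. The boxes did not part the members by pattern, since the windows of Itga3, which also ran with keratinocyte RNA, held 1 and 3. Of 32851 promoter windows of the same length, 32.7% held at least 1. The AP-1 motif TGANTCA, which reads the same on both strands when N is ignored, was in 0 of the printed windows and in 6.75% of all windows. These matches describe letters only and do not show binding.

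Libraries of the first table held 15043531 to 35700337 counts and those of the cilengitide experiment 51211600 to 68266760. The libraries of the first table parted into a lower and an upper set when GC-rich genes were set against GC-poor ones, 1.54 log2 units apart where the next widest gap was 0.395. Replicates a to d of WT and a to e of Col5a1CKO, all of day 14, made up the lower set, and the upper set held all the other libraries. The targeted gene Col5a1 had a median of 846 CPM (347 to 2386) in WT and 368 CPM (170.0 to 663) in Col5a1CKO wounds at day 14, which overlapped (log2 fold change -1.43, SE 0.49, edgeR's quasi-likelihood test, adjusted p = 0.0756). That overlap is over both library sets. Within the lower set Col5a1 lay between 846 and 2386 CPM in WT and between 170.0 and 663 CPM in Col5a1CKO wounds, without overlap, and within the upper set the groups overlapped. In the other libraries labelled Col5a1CKO its ranges also overlapped those of WT.

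Keratinocyte RNA itself differed widely between the Col5a1CKO wounds, and its level is given beside the members throughout. The summed CPM of 8 basal keratinocyte markers, among them Krt5 and Krt14, was 14053 to 58315 in the WT wounds of day 14. In Col5a1CKO wounds it was 22612 in replicate d and 29581 in replicate g, and between 39.5 and 2222 in the other 5. The labelled skin therefore showed its keratinocyte genes in every WT wound and almost none in several Col5a1CKO wounds. At day 19 the sum lay between 6621 and 16263 in WT and between 3972 and 8511 in Col5a1CKO wounds.

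At day 14 Itga6, Itgb4, Lama3, Lamb3 and Col17a1 had lower medians in Col5a1CKO than in WT wounds with a wide spread, and Dst and Col7a1 had higher medians. The median of Itga3 was higher only over both library sets together. It was 8.65 CPM against 14.4 CPM in WT within the lower set, and 59.0 against 109.7 CPM within the upper set. Only Dst passed the test: 1 of the 8 members was called higher, beside 5.57% of all 14367 genes tested, and 0 were called lower, beside 2.71%. Calls needed 2-fold or more and an adjusted p under 0.05. Where ranges are given as not overlapping, here and below, the share of all genes without overlap was not counted. At an unadjusted p under 0.05 there were 0 lower members, and DESeq2 called 0 lower. The median log2 fold change of the members was -0.66, and that of all genes was -0.03.

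The integrin receptor genes overlapped between the genotypes. Itga6 had a lowest value of 52.4, a median of 125 and a highest value of 345 CPM in WT wounds, and 15.6, 45.6 and 235 CPM in Col5a1CKO wounds. Itgb4 ran from 32.7 through a median of 72.1 to 310.0 CPM in WT and from 8.32 through 35.6 to 235 CPM in Col5a1CKO wounds. In both genes the highest Col5a1CKO values were those of replicates d and g, the wounds with keratinocyte RNA. Itga3 had 5.47, 16.1 and 153 CPM in WT, against 4.25, 22.7 and 95.2 CPM in Col5a1CKO wounds. Its 3 high WT values, 108 to 153 CPM, were all in the upper library set, and the 4 WT wounds of the lower set had at most 16.1 CPM. Log2 fold changes were -0.84 (SE 0.60, adjusted p = 0.379) for Itga6, -0.80 (SE 0.73, adjusted p = 0.504) for Itgb4 and -0.73 (SE 0.84, adjusted p = 0.607) for Itga3. With the library set as a covariate the value of Itga3 was 0.34, so its direction depended on the sets.

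Lama3 and Lamb3 had the widest relative range among the Col5a1CKO wounds after Col17a1. Lama3 ran from 21.7 through a median of 118 to 421 CPM in WT and from 1.09 through 18.6 to 631 CPM in Col5a1CKO wounds. Lamb3 ran from 16.3 through 63.8 to 463 CPM in WT and from 2.12 through 13.0 to 269 CPM in Col5a1CKO wounds. Replicate a of Col5a1CKO had the lowest value of both genes, and replicate d had the highest of both. The log2 fold changes were 0.06 (SE 1.02, adjusted p = 0.979) for Lama3 and -0.59 (SE 0.98, adjusted p = 0.742) for Lamb3. Medians of both genes were lower in Col5a1CKO wounds, while the fitted fold changes, which follow the group means, lay within 1 SE of 0.

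Col17a1 had the widest relative range of any member. WT wounds had 184 to 413 CPM in the 4 wounds of the lower set and 1496 to 1764 CPM in the 3 of the upper set. Col5a1CKO wounds had 0.803, 21.9, 131, 621, 11.6, 7.67 and 908 CPM in replicates a to g. Over both sets, replicates d and g thus lay within the range of WT, and the other 5 lay below every WT wound. Within its own set, replicate d lay above every WT wound of the lower set and g below every WT wound of the upper set. The log2 fold change was -1.80 (SE 1.17, adjusted p = 0.336), which did not pass the test. It was -1.19 with the library set as a covariate, -0.87 within the lower set, -1.77 within the upper set and -3.82 with the replicate letter as a block, and none of these was called. In the same order of replicates Krt14, the basal keratin, had 9.35, 472, 1095, 13886, 146, 32.5 and 18456 CPM, against 6964 to 35862 CPM in WT.

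Dst and Col7a1 did not follow the keratinocyte genes. Dst had 105, 149 and 176 CPM as lowest, median and highest value in WT and 174, 349 and 472 CPM in Col5a1CKO wounds. Of the Col5a1CKO wounds only replicate d lay below the highest WT wound, and the 3 highest, a, b and e, were among those with little keratinocyte RNA. The log2 fold change was 1.15 (SE 0.23, adjusted p = 0.00927). It was 1.09 with the library set as a covariate (adjusted p = 0.00345), 1.29 within the lower set (9 libraries, adjusted p = 0.0200) and 0.75 within the upper set (5 libraries, adjusted p = 0.0759), where the call was lost. In those 5 libraries Y-linked RNA was seen in WT and Xist RNA in Col5a1CKO wounds. The fibroblast, leukocyte, endothelial and skeletal muscle marker sums also had higher medians in Col5a1CKO wounds, and for fibroblast markers these were 64343 against 49748 CPM. That of the Schwann cell markers had a lower median there, at 29.5 CPM against 47.7 CPM in WT. The skeletal muscle sum had a median of 2004 CPM (57.6 to 14944) in Col5a1CKO wounds and 20.6 CPM (13.7 to 8727) in WT. The part of cell content and sex in the Dst result was not tested. Col7a1 ran from 228 through 545 to 985 CPM in WT and from 599 through 740.2 to 1753 CPM in Col5a1CKO wounds, which overlapped (log2 fold change 0.70, SE 0.35, adjusted p = 0.208).

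**Figure D1:**
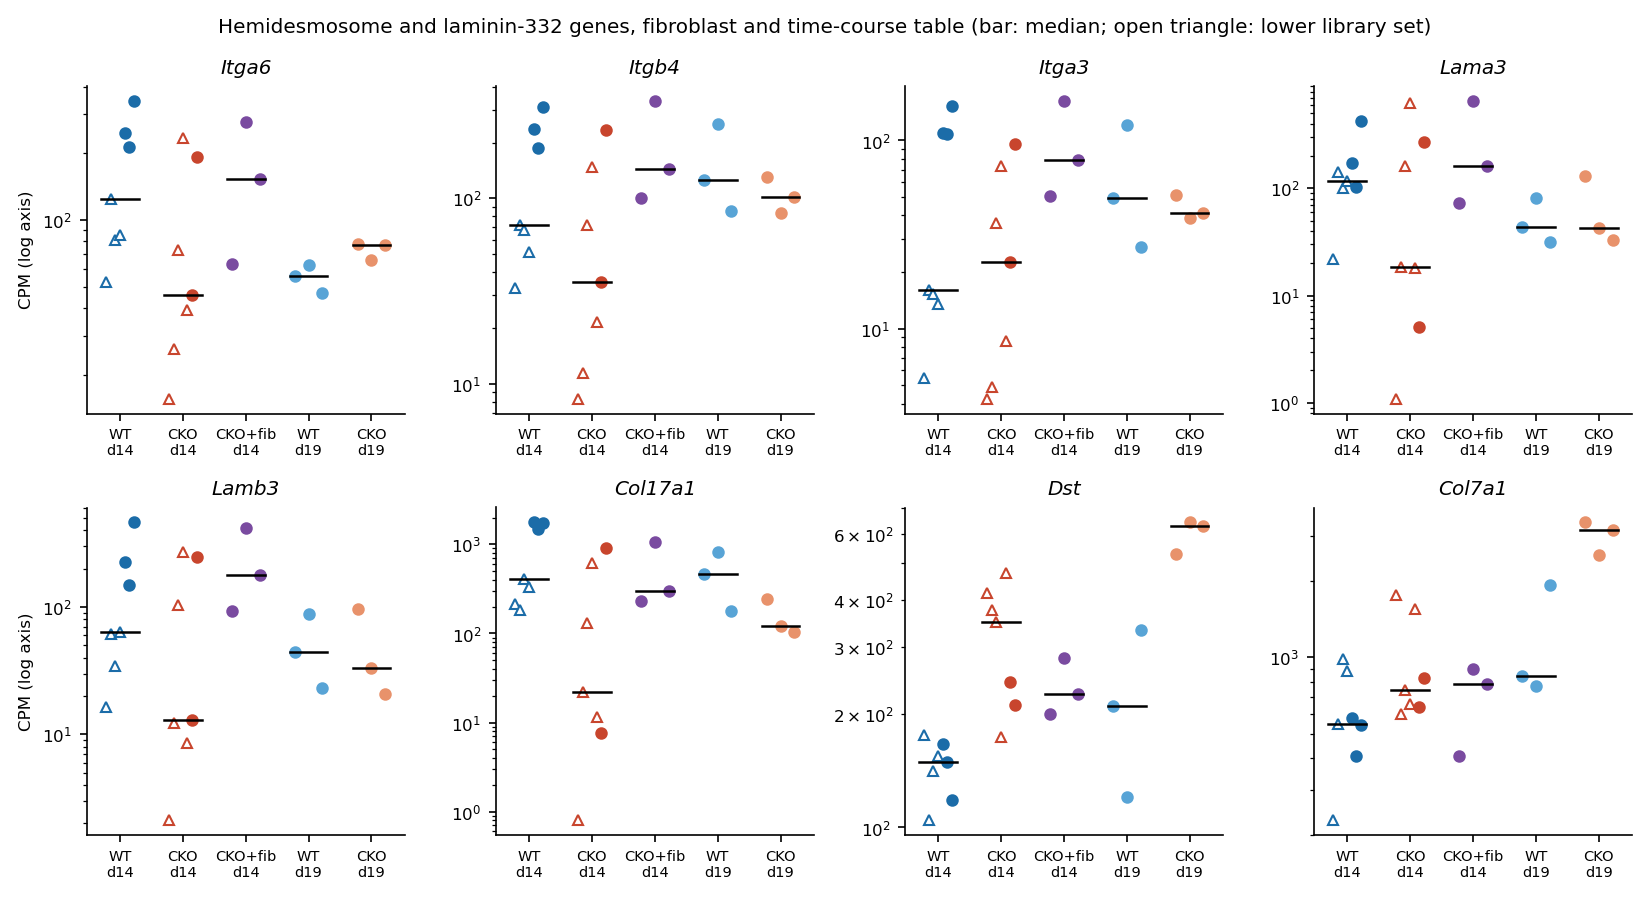
CPM of the 8 members on a log axis in each wound of the first table, with 1 point for each library (open triangles for the lower library set) and a bar at the median, grouped by genotype, day and fibroblast treatment. Col17a1, Lama3 and Lamb3 spread over the widest range in Col5a1CKO wounds of day 14, from 0.803 to 908 CPM for Col17a1, while Dst stayed between 174 and 472 CPM there and Col7a1 between 599 and 1753 CPM.

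Levels of different genes were compared per kilobase of counted exon, which only the first table allows. In WT wounds of day 14 the medians were 76.1 CPM per kb for Col17a1, 59.2 for Col7a1, 29.7 for Itga6, 15.8 for Lamb3, 11.7 for Itgb4, 11.4 for Lama3, 6.40 for Dst and 3.32 for Itga3. In Col5a1CKO wounds of day 14 the order was another one, with 80.5 CPM per kb for Col7a1, 15.0 for Dst, 10.9 for Itga6, 5.79 for Itgb4, 4.67 for Itga3, 4.04 for Col17a1, 3.21 for Lamb3 and 1.80 for Lama3. These orders pool both library sets, and the WT medians of Col17a1 were 273 CPM in the lower and 1734 CPM in the upper set. Ranges of neighbours in these orders overlapped, apart from those of Col7a1 and Dst in Col5a1CKO wounds, where every Col7a1 value was higher than every Dst value per kb. At day 19 Col7a1 had 345 CPM per kb in Col5a1CKO wounds, above every other member.

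Of the genes around the members, 22 were listed as basement membrane partners and 8 as enzymes that cut laminin-332 or release collagen XVII. At day 14, 5 of 21 tested partners were called higher and 1 lower in Col5a1CKO wounds, beside 5.57% and 2.71% of all genes. Col4a2, a chain of the general basement membrane collagen, had a log2 fold change of 1.90 (SE 0.33, adjusted p = 0.00563). Lamc1, the gamma1 chain of most other laminins, had 1.41 (SE 0.24, adjusted p = 0.00563), and Hspg2, which encodes perlecan, had 1.44 (SE 0.28, adjusted p = 0.00837). These 3 genes are also made by vessels, and 4 of 6 endothelial markers were called higher in the same wounds, beside 5.57% of all genes. The part of vessels in these values was not tested. Lowest of the partners was Fras1, an epidermal adhesion gene (-2.68, SE 0.73, adjusted p = 0.0301). Cd151, a tetraspanin of the plaque, had -0.06, and Itgb1, the partner chain of alpha3, had 0.95 (adjusted p = 0.193). Over all wounds the Itgb1 values overlapped, but in the lower set Col5a1CKO wounds had 1370 to 1877 CPM against 699 to 1170 CPM in WT, and in the upper set 549 and 631 CPM against 198 to 361 CPM. Plec, which encodes plectin, was higher in Col5a1CKO wounds of the lower set, at 181 to 289 CPM against 93.6 to 117 CPM in WT, and overlapped in the upper set, at 375 and 449.9 CPM against 397 to 551 CPM.
Of the 7 tested enzymes 5 were called higher, beside 5.57% of all genes. Bmp1, a procollagen and laminin processing protease, had a log2 fold change of 1.57 (SE 0.30, adjusted p = 0.00727), and Adam9, which can shed collagen XVII, had 1.07 (SE 0.22, adjusted p = 0.00965). Mmp9, a neutrophil and keratinocyte gelatinase, had 1.98 (adjusted p = 0.0413). In the same wounds 4 of the 8 tested leukocyte markers were called higher, beside 5.57% of all genes. The part of leukocytes in the enzyme values was not tested.

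At day 19 no Col5a1CKO wound was as low in Itgb4, Lamb3 or Col17a1 as the lowest Col5a1CKO wounds of day 14, and Dst and Col7a1 had their highest levels of the first table in Col5a1CKO wounds. No member passed the test, with 0 called higher and 0 called lower, beside 0.0198% and 0% of 15135 genes. At an unadjusted p under 0.05 edgeR gave 3 members higher, Itga6, Dst and Col7a1, and 1 lower, Col17a1, and DESeq2 called Dst and Col7a1 higher. The median log2 fold change of the members was 0.28, and that of all genes was -0.01. Y-linked RNA was seen in WT replicate a, and Xist RNA in WT replicates b and c and in every Col5a1CKO wound. The part of sex was not tested.

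Itga6 had 55.6, 62.6 and 46.8 CPM in WT replicates a to c and 77.6, 66.0 and 77.2 CPM in Col5a1CKO replicates a to c. These ranges did not overlap, with a log2 fold change of 0.49 (SE 0.15, adjusted p = 0.145), which is under 2-fold. Endothelial marker sums of the same wounds also parted the genotypes. WT replicates a to c had sums of 438, 281 and 612 CPM, and Col5a1CKO replicates a to c had 688, 729 and 1106 CPM. Among the WT wounds the order of this sum was the reverse of that of Itga6. The part of vessels in the Itga6 values was not tested. Itgb4 had 126, 251 and 85.4 CPM in WT and 130.4, 83.6 and 102 CPM in Col5a1CKO wounds, and Itga3 had 49.6, 120.2 and 27.3 CPM against 51.4, 38.8 and 41.3 CPM. In both genes WT replicate b stood highest and the groups overlapped.

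Lama3 had 43.2, 81.4 and 31.7 CPM in WT and 129.5, 43.0 and 33.3 CPM in Col5a1CKO wounds. Lamb3 had 44.0, 88.0 and 23.0 CPM against 96.1, 33.1 and 20.8 CPM. In both laminin genes WT replicate b and Col5a1CKO replicate a were the high wounds of their groups. Col17a1 had 460.4, 821 and 181 CPM in WT and 246, 120.5 and 104 CPM in Col5a1CKO wounds. Only Col5a1CKO replicate a exceeded a WT wound (log2 fold change -1.53, SE 0.61, adjusted p = 0.199).

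Dst had 209, 121 and 333 CPM in WT and 529, 642 and 629.8 CPM in Col5a1CKO wounds at day 19. All 3 Col5a1CKO wounds were higher than every WT wound, with a log2 fold change of 1.48 (SE 0.43, adjusted p = 0.145), and without WT replicate c it was 1.93 (adjusted p = 0.0467). Col7a1 had 839.8, 769.6 and 1919.9 CPM in WT and 3398, 2532 and 3176 CPM in Col5a1CKO wounds. These groups also did not overlap (log2 fold change 1.41, SE 0.52, adjusted p = 0.182). The fibroblast marker sum ranged between 12129 and 116610.0 CPM in WT and between 111754 and 151900.0 CPM in the same Col5a1CKO wounds. The skeletal muscle marker sum was 3493, 328 and 472 CPM in WT and 594, 2482 and 30794 CPM in Col5a1CKO replicates a to c, with wound c far above the others. For Schwann cell markers the sum had a lower median in Col5a1CKO wounds, at 48.4 CPM (37.4 to 56.7) against 79.6 CPM (44.2 to 87.6) in WT. The part of these cells in the differences was not tested. Of the partners, 0 of 22 were called, with 7 higher and 2 lower at an unadjusted p under 0.05 and 5 and 2 by DESeq2. Of the 7 enzymes 0 were called, with 3 higher at an unadjusted p under 0.05 and 2 by DESeq2.

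Whether the genotype effect differed between the days was tested as an interaction. It was called for 0 members, beside 0% of 15954 genes in either direction, and DESeq2 and an unadjusted p under 0.05 also gave 0 members. The difference of the log2 fold changes, day 19 minus day 14, ran from 0.21 for Itga3 to 1.30 for Itga6, with a median of 0.35 over the members and -0.01 over all genes.

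Injection of WT fibroblasts into Col5a1CKO wounds was read against Col5a1CKO wounds without cells and against WT wounds. According to the paper, the wounds without cells had PBS as vehicle. Both comparisons share the 3 wounds with cells, which are called injected below. All 3 injected wounds were in the upper library set, and 5 of the 7 Col5a1CKO wounds without cells were in the lower set. No member passed the test. Against Col5a1CKO wounds 0 members were called higher and 0 lower, beside 0% and 0% of 15659 genes. At an unadjusted p under 0.05 edgeR gave 0 members, and DESeq2 called 0. Over all genes an unadjusted p under 0.05 gave 37 higher and 854 lower, and DESeq2 called 9 and 10. The median log2 fold change of the members was 1.01, and that of all genes was -0.04. Every injected wound had Xist RNA. Of the Col5a1CKO wounds without cells, replicates e to g had Xist RNA and a to d had Y-linked RNA, and the part of sex was not tested.

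Itga6 had 63.2, 277 and 154 CPM in injected replicates a to c, Itgb4 had 99.97, 336 and 144 CPM, and Itga3 had 50.7, 162 and 78.4 CPM. Replicate b was the highest and replicate a the lowest in each receptor gene, and all lay within or above the range of the Col5a1CKO wounds without cells. The log2 fold changes against Col5a1CKO wounds were 0.87 (SE 0.81, adjusted p = 0.626), 1.33 (SE 0.95, adjusted p = 0.525) and 1.46 (SE 0.91, adjusted p = 0.478).

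Lama3 had 72.5, 655 and 163 CPM in the injected wounds and Lamb3 had 94.0, 415 and 178 CPM. Replicate b had the highest Lama3 value among the 23 libraries of the first table, while for Lamb3 WT replicate g of day 14 was higher. Col17a1 had 233, 1072 and 299 CPM, again with b the highest. All 3 were above the 5 Col5a1CKO wounds without cells that had at most 131 CPM. The basal keratinocyte marker sum was 10010.1 to 23455 CPM in the injected wounds. It was 14053 to 58315 CPM in all WT wounds of day 14. In the WT wounds of the upper set it was 24879 to 58315 CPM, above every injected wound. Col5a1CKO replicates d and g had 22612 and 29581 CPM. The part of this sum in the member values was not tested. The log2 fold changes were 0.90 (SE 1.52, adjusted p = 0.798) for Lama3, 1.27 (SE 1.27, adjusted p = 0.652) for Lamb3 and 1.13 (SE 1.61, adjusted p = 0.758) for Col17a1. With the library set as a covariate the value of Col17a1 was 0.22, and within the upper set it was 0.29.

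Dst had 199.9, 281 and 225 CPM and Col7a1 had 407, 901 and 786 CPM in injected wounds. Both had negative log2 fold changes against Col5a1CKO wounds, of -0.46 (SE 0.33, adjusted p = 0.527) and -0.48 (SE 0.43, adjusted p = 0.614). For Dst the sign rested on the library sets, since the value was 0.05 with the set as a covariate. All 3 injected wounds were in the upper set.

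Against WT wounds of day 14 the injected wounds were also not called for any member, with 0 higher and 0 lower beside 3.77% and 2.06% of 15316 genes. An unadjusted p under 0.05 gave 1, Dst, and DESeq2 called 0. Dst was higher in all 3 injected wounds than in any WT wound (log2 fold change 0.83, SE 0.23, adjusted p = 0.0543), which is under 2-fold. The other values were 1.07 (SE 0.73, adjusted p = 0.437) for Lama3, 0.84 for Itga3, 0.80 for Lamb3, 0.64 for Itgb4, 0.36 for Col7a1, 0.14 for Itga6 and -0.58 for Col17a1 (SE 0.81, adjusted p = 0.746). The median over the members was 0.72, and that over all genes was 0.03. For Itga6, Itgb4, Itga3 and Lamb3 the sign turned negative with the library set as a covariate (-0.55, -0.19, -0.19 and -0.14). The 3 upper-set WT wounds had Y-linked RNA and all 3 injected wounds had Xist RNA, so the set-adjusted contrast and sex cannot be told apart. With the replicate letter as a block, a fit of 6 libraries with WT replicates a to c alone, Itgb4, Itga3, Lama3 and Lamb3 were called higher (adjusted p = 0.00757, 0.00253, 0.0150 and 0.00198). Those WT wounds were all in the lower and the injected wounds all in the upper set, so that fit does not tell the injection from the library set. Among the partners 3 of 22 were called higher and 1 lower, beside the same 3.77% and 2.06% of all genes. Col4a2 had 1.81 (SE 0.37, adjusted p = 0.0146), Hspg2 had 1.46 (SE 0.32, adjusted p = 0.0214) and Fras1 had -3.23 (SE 0.68, adjusted p = 0.0167). Against Col5a1CKO wounds without cells 0 of 22 partners were called, with 2 higher and 5 lower at an unadjusted p under 0.05 and 0 and 1 by DESeq2. Of the enzymes 0 were called in either comparison. Without adjustment, at p under 0.05, 4 were higher than in WT (3 by DESeq2), and 1 of 8 was lower than in Col5a1CKO wounds (0 by DESeq2).

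In the cilengitide experiment the receptor genes Itgb4 and Itga3 fell in Col5a1CKO wounds with vehicle. These were the members called lower, 2 of the 8 members, beside 13.4% of 15434 genes, and 0 were called higher, beside 17.5%. At an unadjusted p under 0.05 there were 3 lower and 0 higher, and DESeq2 called 3 lower and 0 higher, the third being Col17a1. The median log2 fold change of the members was -1.03, and that of all genes was 0.02. Xist RNA marked WT replicates 1 and 3, and Y-linked RNA marked WT replicates 2 and 4 and Col5a1CKO replicates 1, 3 and 4. Col5a1CKO replicate 2 had no Y-linked RNA and as little Xist RNA as the other vehicle-treated Col5a1CKO wounds. The part of sex in this comparison was not tested.

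WT wounds with vehicle were close to each other in the receptor genes. Itgb4 had 219.9, 215, 222 and 188 CPM in WT replicates 1 to 4 and 45.4, 19.3, 11.5 and 116 CPM in Col5a1CKO replicates 1 to 4 with vehicle. Every Col5a1CKO wound was below every WT wound, and the log2 fold change was -2.16 (SE 0.66, adjusted p = 0.0292). Itga3 had 96.1, 102, 105 and 108 CPM in WT and 39.4, 12.1, 9.35 and 59.3 CPM in Col5a1CKO wounds, again without overlap (log2 fold change -1.80, SE 0.56, adjusted p = 0.0310). Itga6 had 241, 244, 249.3 and 219 CPM in WT and 109, 61.8, 36.0 and 232 CPM in Col5a1CKO wounds. Only Col5a1CKO replicate 4 reached the WT range (log2 fold change -1.15, SE 0.51, adjusted p = 0.0974). Both calls rested on the full groups: that of Itgb4 was lost without WT replicate 2 or 3 or Col5a1CKO replicate 1 or 2 (adjusted p = 0.0536 to 0.0685), and that of Itga3 without any of these or WT replicate 4 (0.0505 to 0.0621). Without Col5a1CKO replicate 4 there were 4 called lower, Itga6 (-1.76, adjusted p = 0.00672) and Col17a1 (-4.93, adjusted p = 0.0139) with them.

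Col17a1 had 1363, 1151, 1554 and 1479 CPM in WT and 117, 3.96, 15.4 and 474 CPM in Col5a1CKO wounds with vehicle. No value overlapped, and the fold change was the largest of the members, but the spread among the Col5a1CKO wounds left it short of the threshold (log2 fold change -3.22, SE 1.27, adjusted p = 0.0687). The laminin genes overlapped. Lama3 had 143, 255, 145 and 129 CPM in WT and 112, 5.62, 16.4 and 359 CPM in Col5a1CKO wounds, and Lamb3 had 168, 207, 173 and 158 CPM against 79.7, 2.50, 25.0 and 278 CPM. Replicate 4 of Col5a1CKO was above every WT wound for both, and replicates 2 and 3 were far below. Their log2 fold changes were -0.48 (SE 1.07, adjusted p = 0.728) and -0.91 (SE 1.06, adjusted p = 0.501).

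In Col5a1CKO wounds with vehicle the basal keratinocyte marker sum ran in the order of Col17a1, Lama3 and Lamb3. It went from 86.9 in replicate 2 to 14075 in replicate 4, against 18593 to 27356 CPM in WT. The receptor genes Itgb4, Itga3 and Itga6 were lowest in replicate 3 instead. The suprabasal sum was 27.8 to 1979 CPM in these Col5a1CKO wounds against 45683 to 88211 CPM in WT. The part of these marker sums in the lower receptor genes was not tested. Krt5 was called lower (-3.65, adjusted p = 0.0431), and Krt14 was not (-2.12, adjusted p = 0.274). Dst had 165, 175, 199.99 and 196 CPM in WT and 336, 192, 286 and 187 CPM in Col5a1CKO wounds. Replicates 1 and 3 were higher than every WT wound, but the groups overlapped (log2 fold change 0.43, SE 0.22, adjusted p = 0.144). Col7a1 had 1120.0, 1232, 473 and 462 CPM in WT and 1077, 966, 1108 and 590.0 CPM in Col5a1CKO wounds, with a log2 fold change of 0.17 (SE 0.42, adjusted p = 0.751). WT replicates 1 and 2 were high and replicates 3 and 4 low, and Col1a1 split the same wounds, with 15500.0 and 14569.9 against 3199 and 2789 CPM.
Among the partners, 4 of 22 were called higher and 5 lower in Col5a1CKO wounds with vehicle, beside 17.5% and 13.4% of all genes. The lower ones with the smallest adjusted p were Col4a6 (-8.89, SE 0.87, adjusted p = 0.000626) and Col4a5 (-2.71, SE 0.36, adjusted p = 0.00128), chains of an epithelial collagen IV, and Frem2 (-6.99, SE 0.81, adjusted p = 0.000905), which works with Fras1. Itgb1 was called higher (1.89, SE 0.36, adjusted p = 0.00417) while its partner Itga3 was called lower, and beta1 also pairs with many other alpha chains in other cells. Plec (-0.13) and Cd151 (0.25) were not called. Of 7 enzymes tested, 5 were called higher, beside 17.5% of all genes. Among them were Adam9 (1.495, SE 0.17, adjusted p = 0.000865) and Bmp1 (2.01, SE 0.52, adjusted p = 0.0146). The leukocyte marker sum lay between 336 and 2732 CPM in WT and between 4769 and 48677 CPM in Col5a1CKO wounds with vehicle, and its part in the enzyme levels was not tested.

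With cilengitide Itgb4 was the 1 of 8 members called higher than with vehicle, beside 6.48% of 15563 genes, and 0 were called lower, beside 6.59%. Itgb4, Itga3 and Col17a1 were higher in all 4 treated wounds than in any vehicle wound, and how many of all genes were was not counted. At an unadjusted p under 0.05 there were 3 higher and 0 lower. DESeq2 called 4 higher, Itga6, Itgb4, Itga3 and Col17a1, and 0 lower. The median log2 fold change of the members was 1.80, and that of all genes was -0.06. This comparison shares the vehicle-treated Col5a1CKO wounds with the one above. Cilengitide replicates 2 and 3 had Xist RNA and replicates 1 and 4 had Y-linked RNA, and the part of sex was not tested here either.

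Itgb4 had 194, 348, 347 and 225 CPM in cilengitide replicates 1 to 4. All were above the highest vehicle wound of Col5a1CKO, at 116 CPM, and the log2 fold change was 2.52 (SE 0.71, adjusted p = 0.0368). Itga3 had 82.6, 116, 163 and 95.7 CPM, again above every vehicle wound (log2 fold change 1.92, SE 0.60, adjusted p = 0.0516). Itga6 had 177, 299, 375 and 232 CPM, of which replicate 1 lay below the highest vehicle wound (log2 fold change 1.29, SE 0.56, adjusted p = 0.123). Col17a1 had 799, 1294, 1066 and 764 CPM, all above the 474 CPM of the highest vehicle wound (log2 fold change 2.66, SE 1.25, adjusted p = 0.150). The call of Itgb4 was lost without any 1 of vehicle replicates 1 to 3 or cilengitide replicates 1 to 3 (adjusted p = 0.0570 to 0.0692). Without vehicle replicate 4 there were 5 members called higher, among them Col17a1 (4.42, adjusted p = 0.0278) and Itga6 (1.97, adjusted p = 0.0145).

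Lama3 had 238, 592, 569.9 and 403 CPM with cilengitide, and Lamb3 had 234, 395, 433 and 256 CPM. Vehicle replicate 4 lay within both ranges, and the other 3 vehicle wounds lay below all 4 treated wounds. The log2 fold changes were 1.85 (SE 1.12, adjusted p = 0.248) and 1.76 (SE 1.10, adjusted p = 0.265). Dst had 157, 221, 177 and 216 CPM and Col7a1 had 1166, 1430.5, 836 and 1157 CPM, and both overlapped the vehicle wounds, with log2 fold changes of -0.39 (SE 0.23, adjusted p = 0.243) and 0.28 (SE 0.27, adjusted p = 0.472). The basal keratinocyte marker sum was 20609 to 33138 CPM with cilengitide, above all 4 vehicle wounds, and its part in the higher receptor genes was not tested.

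**Figure D2:**
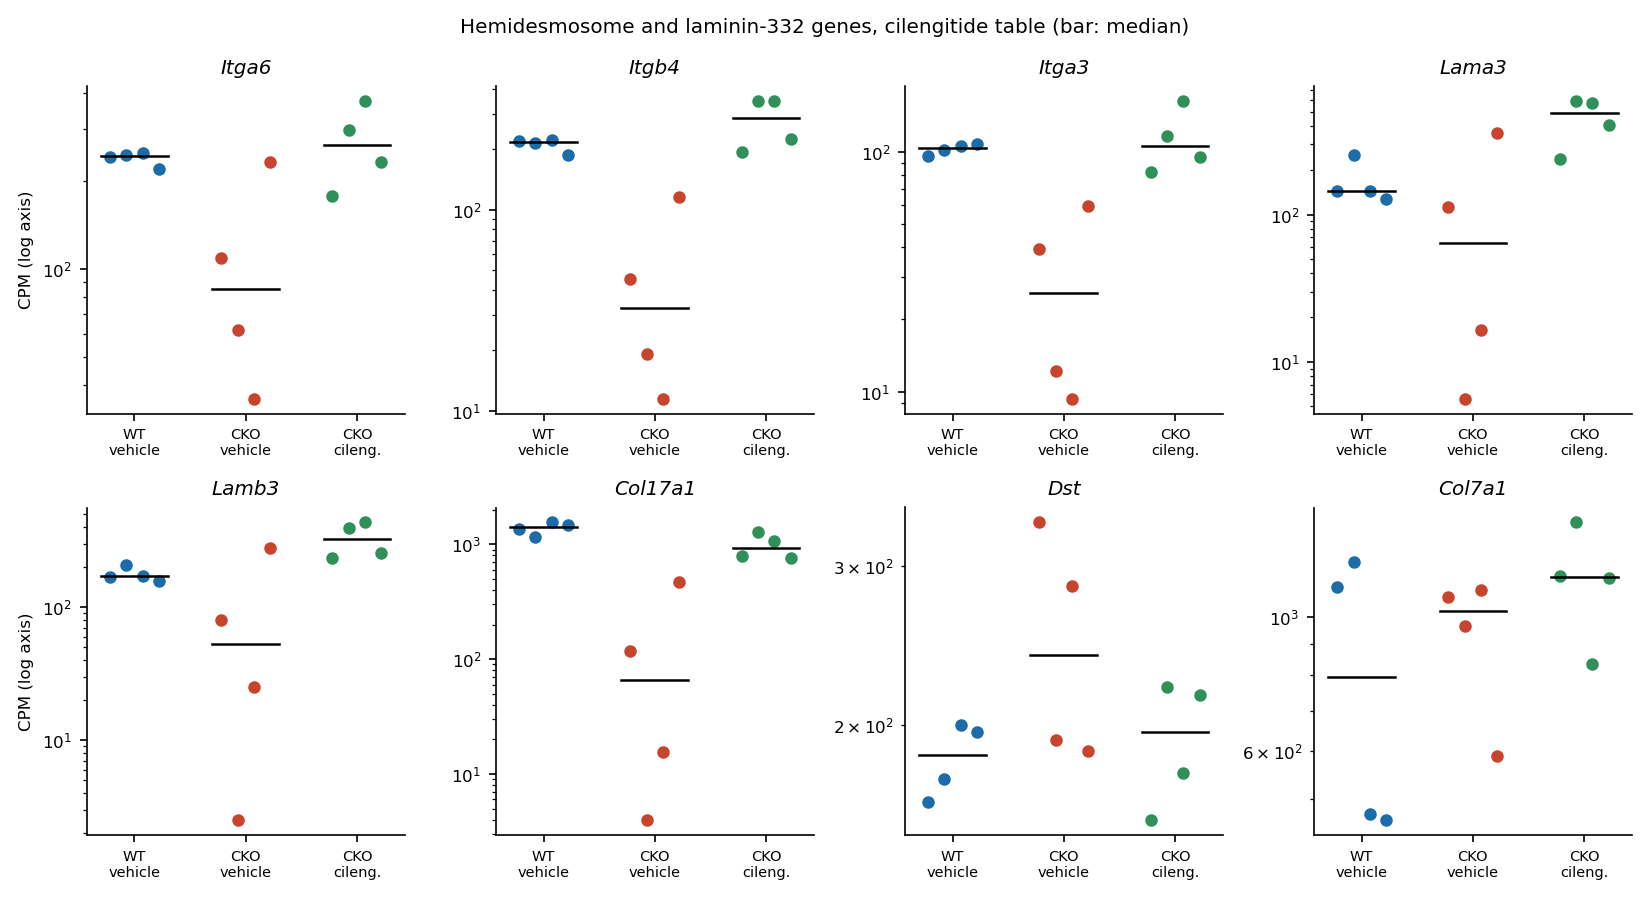
CPM of the 8 members on a log axis in each wound of the cilengitide experiment, with 1 point for each library, a bar at the median and 4 libraries in each group. In Itgb4, Itga3 and Col17a1 all 4 vehicle-treated Col5a1CKO wounds lie below all WT and all cilengitide wounds, and in Lama3 and Lamb3 only replicates 1 to 3 do.

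Of the partners 5 of 22 were called higher with cilengitide and 0 lower, beside 6.48% and 6.59% of all genes. Itgb1 (-0.67, adjusted p = 0.0608) and Cd151 (-0.27, adjusted p = 0.123) were lower in all 4 treated wounds than in any vehicle wound and were not called. Col4a6 (6.68, SE 0.84, adjusted p = 0.00406), Frem2 (5.32, SE 0.83, adjusted p = 0.00700) and Fras1 (2.11, SE 0.48, adjusted p = 0.0199) had the smallest adjusted p. Of the enzymes 0 were called, and an unadjusted p under 0.05 gave 0 higher and 2 lower (0 and 0 by DESeq2).

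Against WT wounds with vehicle the cilengitide wounds had more Lama3 and Lamb3 RNA, and no receptor gene was called. Lama3 was the 1 member of 8 called higher, beside 5.15% of 15514 genes, and 0 were called lower, beside 3.43%. DESeq2 called 1 higher, Lama3, and 0 lower, and an unadjusted p under 0.05 gave 2 higher and 1 lower. The median log2 fold change was 0.29 for the members and -0.01 for all genes.

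The log2 fold change of Lama3 was 1.42 (SE 0.33, adjusted p = 0.0269). The 238 CPM of cilengitide replicate 1 lay below the 255 CPM of WT replicate 2, and the other 3 treated wounds lay above all WT wounds. The call was lost without WT replicate 1, 3 or 4 or cilengitide replicate 2, 3 or 4 (adjusted p up to 0.0719), and with all groups in 1 fit (adjusted p = 0.345). Lamb3 was higher in all 4 treated wounds than in any WT wound and passed the adjusted p, but by under 2-fold (log2 fold change 0.90, SE 0.21, adjusted p = 0.0267). The wound edge keratins Krt6a, Krt6b, Krt16 and Krt17 summed to 16853 to 28141 CPM with cilengitide and 3487 to 15638 CPM in WT, without overlap, and the part of these keratinocytes in the laminin levels was not tested.

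The receptor genes had small differences from WT, with 0.40 (SE 0.19, adjusted p = 0.152) for Itgb4, 0.19 for Itga6 and 0.16 for Itga3. Col17a1 had -0.50 (SE 0.19, adjusted p = 0.0925), and only cilengitide replicate 2 reached the WT range. Dst had 0.07 and Col7a1 0.49 (SE 0.36, adjusted p = 0.328). Among the partners 4 of 22 were called higher and 3 lower, beside 5.15% and 3.43% of all genes. Col4a5 (-1.47, SE 0.24, adjusted p = 0.0193) and Col4a6 (-2.19, SE 0.38, adjusted p = 0.0193) stayed below WT, and Itgb1 was higher (1.26, SE 0.29, adjusted p = 0.0267). Of the enzymes 1 was called higher by edgeR and 4 by DESeq2, the former being Mmp2, a fibroblast gelatinase (1.75, SE 0.50, adjusted p = 0.0455). Krt10, a suprabasal keratin, was called lower (-1.74, SE 0.48, adjusted p = 0.0396), with 6412 to 20418 CPM against 19333 to 41905 CPM.

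**Figure D3:**
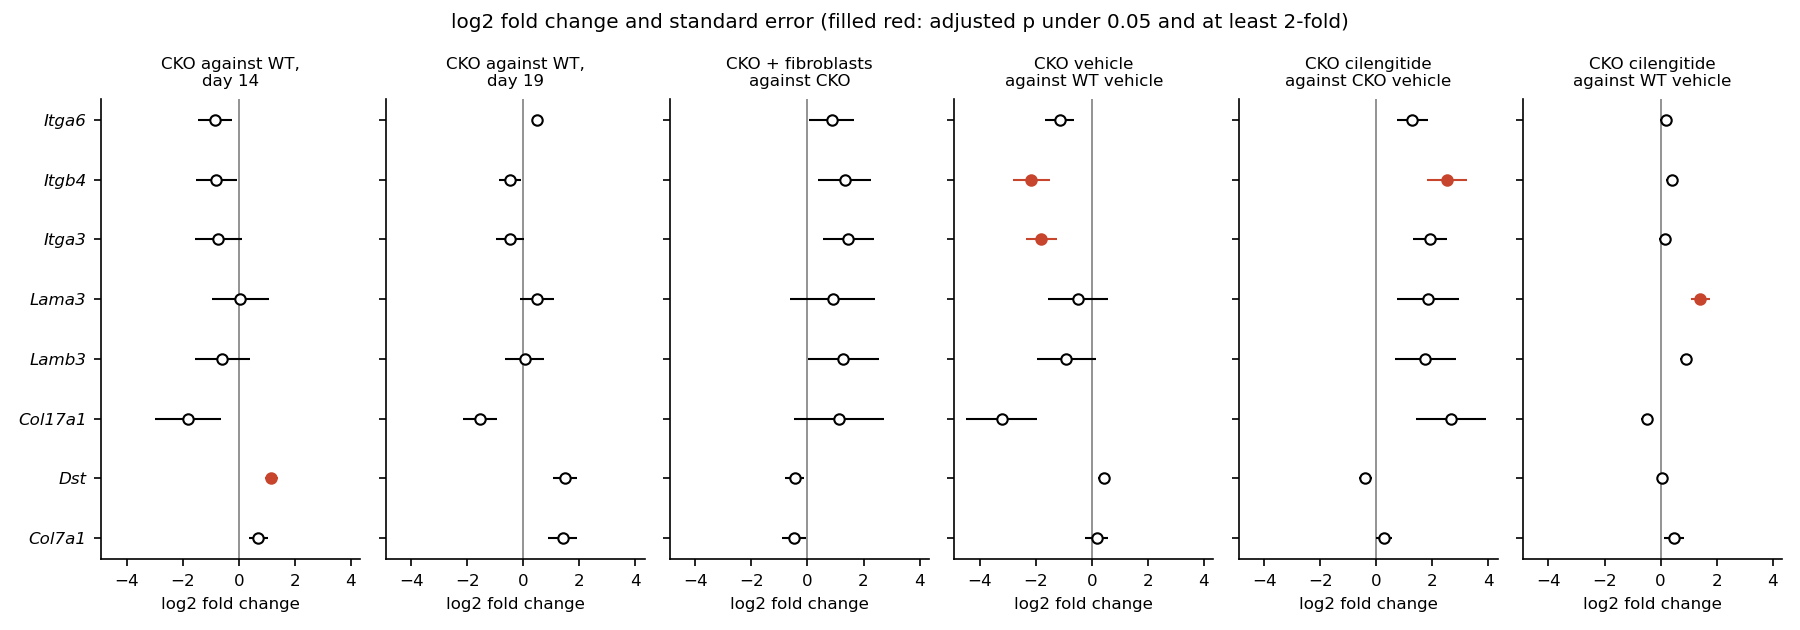
Log2 fold change of each member (horizontal axis) with its SE (bars) in 6 comparisons of groups, from edgeR's quasi-likelihood fit. Filled red points passed an adjusted p of 0.05 and 2-fold, which holds for Dst at day 14, for Itgb4 and Itga3 in the vehicle comparison, for Itgb4 with cilengitide against vehicle and for Lama3 with cilengitide against WT.

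By Pearson's r across the wounds the members fell into a set that ran with keratinocyte RNA and a pair that did not. Pearson's r of log2(CPM + 1) with Krt14 is given over the 23 libraries of the first table and the 12 of the cilengitide table. The libraries share genotype, day and treatment and the share of keratinocytes, so the values describe them and are not tested. Col17a1 had r = 0.93 and 0.97. Itga6 had 0.76 and 0.92, Itgb4 0.78 and 0.95, and Itga3 0.60 and 0.95. Lama3 had 0.84 and 0.94, and Lamb3 0.78 and 0.96. Col7a1 had -0.25 and -0.05 and Dst -0.52 and -0.49. By Spearman's rank correlation with Krt14 Col7a1 had -0.35 and 0.55, Dst -0.71 and -0.46, and Col17a1 0.81 and 0.53. In the cilengitide table the parting of Col7a1 from the set thus depended on the coefficient. Within the lower set of 9 libraries and the upper set of 14 Pearson's r of Col17a1 was 0.97 and 0.89, and that of Dst -0.88 and -0.27.

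Lama3 and Lamb3 were close to each other, with r of 0.94 and 0.97. Col7a1 ran with Col1a1, the main fibroblast collagen, at 0.78 and 0.88. Dst did so in the first table (0.80) and not in the cilengitide table (0.20). By Spearman's rank correlation Col7a1 and Col1a1 had 0.77 and 0.29, so in the cilengitide table this too depended on the coefficient. Relative to Krt14 of the same wound, Lama3 had a median log2 ratio of -6.70 in WT and -2.95 in Col5a1CKO wounds of day 14, and, in the cilengitide experiment, -5.80 in WT, -2.82 in vehicle-treated and -4.99 in cilengitide-treated Col5a1CKO wounds. For Col17a1 these 5 medians were -5.01, -3.54, -2.94, -2.83 and -3.96. For Lama3 the Col5a1CKO wounds of day 14 and those with vehicle lay above their WT wounds without overlap. A higher median ratio in Col5a1CKO than in WT wounds of day 14 was seen for every member, such as Itga6 (-3.88 against -6.87) and Lamb3 (-3.95 against -7.87). The ratios are of CPM + 1, and the lowest Col5a1CKO values of day 14 were 1.09 CPM for Lama3 and 9.35 CPM for Krt14. For Col17a1 the ranges of Col5a1CKO and WT wounds overlapped in both experiments, and the cilengitide wounds lay below WT with vehicle without overlap.

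**Figure D4:**
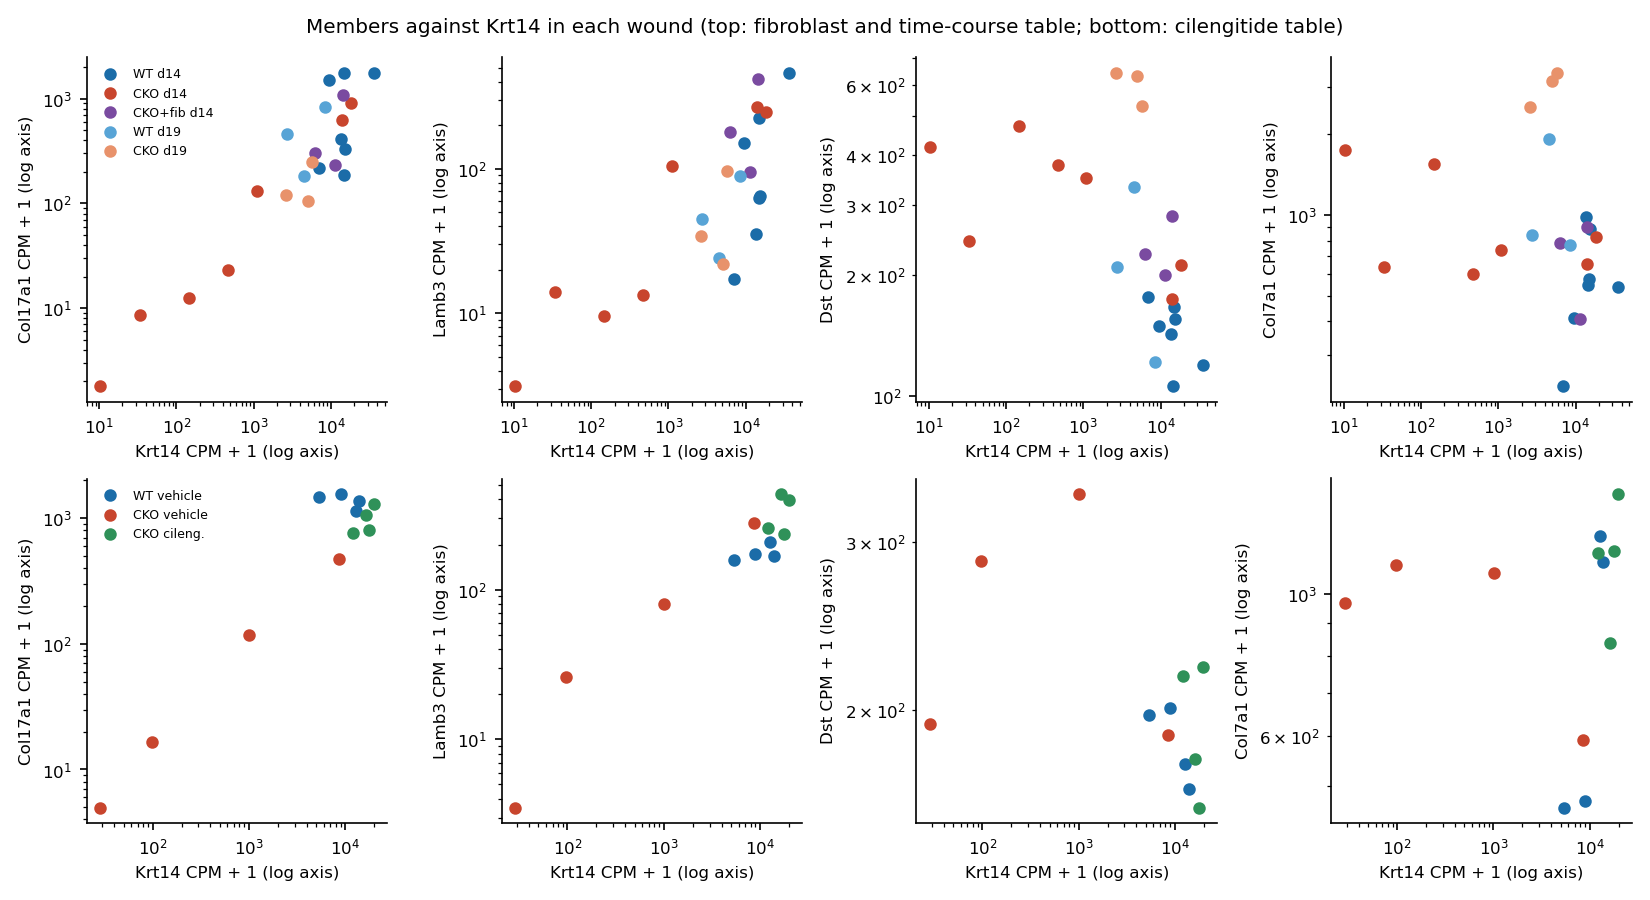
CPM + 1 of Col17a1, Lamb3, Dst and Col7a1 against CPM + 1 of Krt14 in the same wound, on log axes, with 1 point for each library, colours for the groups, the 23 libraries of the first table in the top row and the 12 of the cilengitide experiment in the bottom row. Col17a1 (Pearson's r = 0.93 and 0.97) and Lamb3 (0.78 and 0.96) lie along a rising band, and Dst (-0.52 and -0.49) and Col7a1 (-0.25 and -0.05) do not. By Spearman's rank correlation Col7a1 had -0.35 and 0.55.

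The genes whose pattern was most like the mean of the members were named by Pearson's r of log2(CPM + 1) over 12062 genes in the first table. These were Fam167a (0.91), Klk10, a kallikrein of the epidermis (0.90), Duox1, an oxidase that makes hydrogen peroxide (0.89), Micall1 (0.88) and Rgs12 (0.87), over 23 libraries. Within the lower and upper library sets the value of Fam167a was 0.91 and 0.85. In the cilengitide table, over 11629 genes, they were Dsg3, a desmosomal cadherin of basal keratinocytes (0.98), Klk10 (0.97), Cdcp1 (0.96) and the wound keratins Krt6a (0.96) and Krt17 (0.96), over 12 libraries. Klk10 was in both lists. For Col17a1 alone the closest gene in the first table was Krt5 (0.99). For Dst they were Tead1 (0.95), which had 0.65 in the cilengitide table, and Gcap14 (0.86), which had 0.41 in the first table. For Col7a1 they were Slc9a5 (0.87) and Mir711 (0.97), and Mir711 lies within Col7a1, so that row can hold the reads of Col7a1 itself.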

How the data were processed

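The authors deposited raw counts per RefSeq transcript for the fibroblast and time-course libraries, and raw counts per gene symbol for the cilengitide libraries. Libraries were made with a stranded TruSeq kit. The methods describe alignment with HISAT2, which the submitters' processing notes also name, to NCBI37/mm9 and counting over RefSeq exons with SeqMonk, without saying whether this covers the cilengitide libraries. Columns were matched to samples by title, and 0 columns matched no sample. Rows without a gene name were left out (30 rows with 0.0492% of counts, and 1 row with 5.91e-05%). Of 29082 rows in the first table, 1 for each of 22830 symbols was used, that with the largest total.

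Genes were tested within each pair of groups with edgeR 4.0.16 in R 4.3.3 (TMM, filterByExpr with a minimum count of 10, quasi-likelihood test, Benjamini-Hochberg adjustment over all genes tested), and called at an adjusted p under 0.05 and at least 2-fold. Scripts were tested on simulated data. CPM and correlations used Python 3.11.15, numpy 2.4.6, pandas 2.3.3 and scipy 1.17.1, and the figures matplotlib 3.10.9. Library sets were split at the widest gap in GC balance, the median log2(CPM + 1) of the 10% of genes richest in GC minus that of the 10% poorest, over genes of at least 5 CPM. No pair of libraries in a group was a duplicate (smallest chi-square per degree of freedom 29.9 and 69.0).

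The members and lists were chosen with earlier results of these data known. Named besides the members were Col5a1, Plec, Cd151, Itgb1, up to 3 called partners and 2 called enzymes per comparison by adjusted p, and the genes most like the members, apart from items not reported here. Fras1 and Mmp9 at day 14 were named after their values were seen. Alternatives were other size factors, DESeq2 1.42.0, scaling by library size alone, no filter (at least 1 count), 3-fold, all groups in 1 fit, the library set as a covariate or each set alone, the replicate letter as a block, and leaving out each library.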

Additional observations from a re-analysis of the deposited data

Results flagged for a closer look

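Of 40 sets of member values in groups of 4 to 10 libraries, 3 held a library far from the others by Dixon's criterion, which chance gives in about 1 in 20 groups. All 3 were values of Lama3. WT replicate g of day 14 had 421 CPM where the other WT wounds had 21.7 to 172 CPM, and the gap was 0.624 of the group's range against a critical value of 0.568. Col5a1CKO replicate d of day 14 had 631 CPM where the others had 1.09 to 269 CPM, with a gap of 0.575 of the range. WT replicate 2 with vehicle had 255 CPM where the others had 129 to 145 CPM, with a gap of 0.870 against a critical value of 0.829.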

How the results depend on the processing

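Of the counts of called members under the alternatives, 228 stayed within 1.5 times the reported count and 34 did not, and of the fold changes of single members 968 kept their direction and call, 26 gained a call, 25 lost one and 53 changed sign. The cause of these changes was not tested. For Dst at day 14, 0 members remained called within the upper library set or at 3-fold. At day 19 DESeq2 called 2 higher, and leaving out 1 library gave 0 to 1 (Dst without WT replicate c). With cilengitide against vehicle 2 were called higher with the size factors of DESeq2, with library size only, without the filter and with all groups in 1 fit, DESeq2 called 4, and leaving out 1 library gave 0 to 5. For the vehicle comparison leaving out 1 library gave 0 to 4 lower. With cilengitide against WT 0 were called with all groups in 1 fit or at 3-fold, 2 without a minimum fold, and 0 to 2 without 1 library.

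Replicate letters were not taken as pairs. After removal of the group means, same-letter wounds correlated at -0.46 to 0.57 at day 14 (mean 0.19, 5 of 7 over 0.1) and at -0.43 to -0.32 at day 19. Between injected Col5a1CKO wounds and those without cells the values were -0.19 to 0.41. Between injected and WT wounds they were 0.018 to 0.39 (0.11 to 0.52, 3 of 3 over 0.1, when the library set means were also removed). With the letter as a replicate block, 4 members were called higher in injected against WT wounds, Itgb4 (1.59), Itga3 (2.92), Lama3 (1.51) and Lamb3 (2.49), where 0 were without it. That fit held 6 libraries, WT replicates a to c of the lower set and the 3 injected wounds of the upper set, so the block, the absence of WT replicates d to g and the library set cannot be told apart. The block changed the sign of Lama3 at day 14 (-1.95), of Lamb3 at day 19 (-0.0799) and of Col17a1 in injected against WT wounds (0.63), and changed no other call.

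Other sign changes were of fold changes that had passed no test. At day 14 the set covariate gave 0.34 for Itga3 and 0.21 for Lamb3, the lower set gave 1.01 and 0.84, and the upper set gave -0.68 for Lama3. At day 19 Lamb3 had -0.41 with library size only and -0.0485 with all groups in 1 fit. For injected Col5a1CKO wounds against those without cells Dst had 0.0492 with the covariate and 0.11 in the upper set. For injected against WT wounds the covariate and the upper set gave -0.55 and -0.57 for Itga6, -0.19 and -0.20 for Itgb4, -0.19 and -0.21 for Itga3 and -0.14 and -0.15 for Lamb3, and all groups in 1 fit gave -0.0027 for Itga6. For the interaction, library size only gave -0.28 for Itgb4, -0.41 for Itga3, -0.37 for Col17a1, -0.20 for Lama3, -0.0056 for Lamb3 and -0.15 for Dst, and the covariate gave -0.15 for Itgb4, -0.86 for Itga3, -0.39 for Col17a1 and -0.20 for Lamb3.

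Leaving out 1 library at a time, these values crossed 0. At day 14 Lama3 ran from -0.93 to 0.54 and Lamb3 from -1.12 to 0.0653. At day 19 Itgb4 ran from -0.75 to 0.02, Itga3 from -0.87 to 0.21, Lama3 from -0.36 to 0.90 and Lamb3 from -0.83 to 0.61. For injected Col5a1CKO wounds against those without cells Lama3 ran from -0.43 to 1.90. For injected against WT wounds Itga6 ran from -0.47 to 0.49, Itgb4 from -0.0335 to 0.95 and Lama3 from -0.26 to 1.53. In the cilengitide experiment Col7a1 ran from -0.0299 to 0.44 for vehicle, and against WT Itga6 ran from -0.0139 to 0.34 and Itga3 from -0.0663 to 0.28.

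The library sets could not be used at day 19, where all libraries were in the upper set, the lower set could not be used for injected wounds, and the sets do not apply to the cilengitide table. Groups of 3 and the wide spread of Col5a1CKO wounds limit what these comparisons can show.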
